A study of Mus musculus with 11 samples.

Results

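Thymic DN3 cells, the thymocytes that rearrange the beta chain of the T cell receptor (TCR), were compared across all genes with ZsGreen-positive group 2 innate lymphoid cells (ILC2) of the lung. Both populations express Cd3g, which encodes the gamma chain of the CD3 complex. The comparison rests on 6 of the 11 libraries of the series, 3 of thymic DN3 and 3 of ZsGreen-positive lung ILC2, chosen by the tissue and the ZsGreen status in the sample titles. All 6 came from untreated mice aged 14 days of the genotype Cd3giCreRosa26stopZsGreen. In these mice an iCre recombinase is made where Cd3g is, and it cuts out the stop that silences ZsGreen at Rosa26, so ZsGreen marks a cell that expressed Cd3g or descends from one that did, whether or not it still makes the RNA. The labels do not say whether DN3 cells were gated on ZsGreen, which surface markers defined the gates, or whether libraries came from single or pooled animals. DN3 libraries carry the batch date 17 October 2024, ZsGreen-positive libraries 1 and 2 the date 2 September 2024 and library 3 the date 8 April 2025. Batch and tissue cannot be told apart with these dates.

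The CD3 gamma, delta and epsilon chains and the zeta chain (Cd247) carry the TCR to the cell surface and signal through motifs that the kinase LCK phosphorylates and ZAP-70 or SYK bind. A DN3 thymocyte lacks CD4 and CD8, carries CD25 (Il2ra), depends on Notch and TCF-1 (Tcf7), and rearranges its antigen receptor loci with RAG1 and RAG2 until a pre-TCR made with Ptcra signals. An ILC2 has no such receptor, depends on GATA3, ROR-alpha and ID2, and responds to the alarmin IL-33 through Il1rl1 with type 2 cytokines.

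Total counts were 5951494 to 7745062 in DN3 and 5762491 to 17627469 in ZsGreen-positive libraries, where 1 count stood for 0.0642 to 0.199 CPM (counts relative to the library total, scaled by edgeR's TMM factors). Across genes, libraries of 1 population correlated at r = 0.984 to 0.995 and libraries of different populations at 0.685 to 0.707 on the log2 scale. The median coefficient of variation was 4.73% over 7296 genes in DN3 and 10.04% over 7509 genes in ZsGreen-positive ILC2. Since the labels do not call the replicates separate animals or cultures, each p-value reflects library-to-library spread whose technical part is not known. The sex-linked genes Xist (0.445 against 2799 and 2839 CPM) and Ddx3y (106 against 0.681 and 0 CPM) set DN3 library 1 apart from DN3 libraries 2 and 3. These DN3 libraries thus do not all repeat the same RNA sample, and the part of sex in any difference was not tested. These are bulk libraries, in which fewer cells of a type and less RNA per cell cannot be told apart.

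The populations differed in most genes. Of 14486 genes tested, 5217 (36%) were higher and 5777 (39.9%) lower in DN3 (edgeR quasi-likelihood F test, BH-adjusted p under 0.05). The difference reached 1 log2 unit for 3075 and 3802 genes. The groups did not overlap, whatever the size of the difference, in 11383 genes (78.6%). No overlap between the groups together with a difference of at least 2 log2 units was found for 1332 genes higher and 2405 lower in DN3, and for 400 and 1304 genes with at least 4 log2 units. At the other end, 3865 genes (26.7% of those tested) had a similar level, defined as a mean of at least 20 CPM in both populations and a 95% interval of the fold change within 2-fold either way. That was 62.6% of the 6175 genes with at least 20 CPM in both, and 2411 of the 3865 were nevertheless called, with no difference above 0.84 log2 units. Scaling set the balance of the calls: with library totals alone, which shifted the median of all genes by 0.38 log2 units, 6945 genes were higher and 4392 lower, so that 61.3% of the calls were higher in DN3 instead of 47.5%. Upper-quartile scaling, with a shift of 0.14, gave 5849 and 5219.

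**Figure D1:**
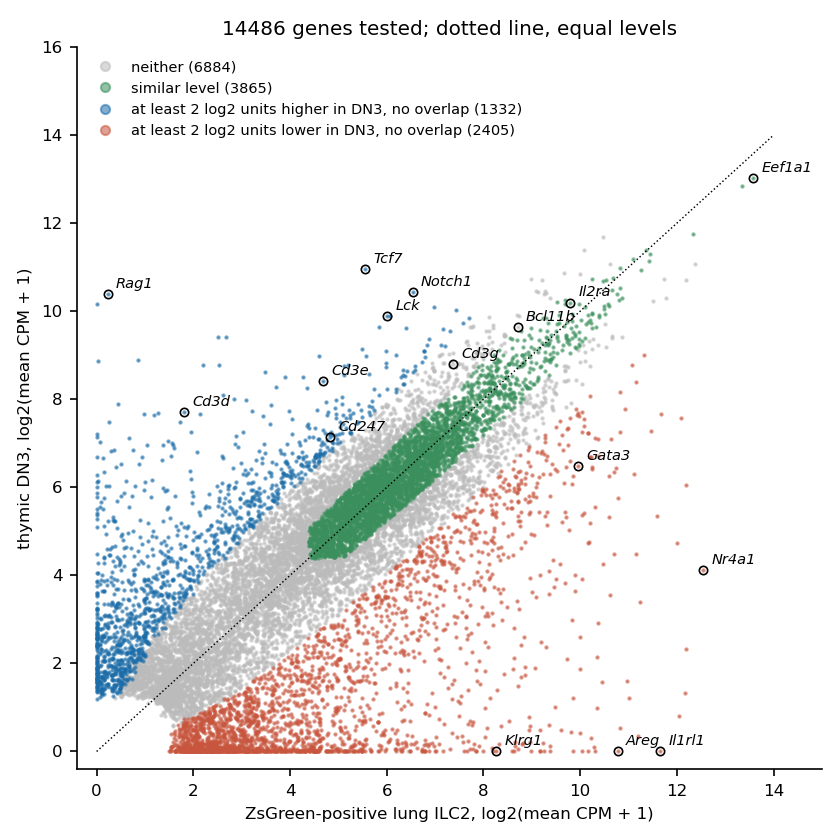
Each point is 1 of 14486 tested genes, with its mean in the 3 ZsGreen-positive lung ILC2 libraries on the x axis and in the 3 thymic DN3 libraries on the y axis, both as log2(mean CPM + 1), coloured by class and with the genes per class in the legend. The 3865 genes of similar level follow the dotted line of equal levels, Rag1 stands near the DN3 axis, and Klrg1, Areg and Il1rl1 lie at 0 in DN3.

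The labels were set beside defining markers of each population. Tcf7, whose product TCF-1 starts the T cell programme, measured 2039, 1921 and 1981 CPM in the DN3 libraries and 34.4, 50.6 and 52.1 CPM in the ILC2 libraries. Every DN3 library thus lay above every ILC2 library, and the difference was 5.43 log2 units (SE 0.12; edgeR BH-adjusted p = 2.61e-13). Klrg1, an inhibitory receptor of activated ILC2, had 0 counts in DN3 and 315, 300.02 and 305 CPM in ILC2, or at least 2422-fold lower in DN3. Il1rl1, the IL-33 receptor, likewise had 0 counts in DN3 and 3272, 3607 and 2759.8 CPM in ILC2. All 13 thymic DN3 markers were higher in DN3, beside 36% of all genes, with summed levels of 9080 to 9265 CPM against 1099 to 1367 CPM. Of the 12 lung ILC2 markers 11 were lower, beside 39.9% of all genes, the exception being Thy1. Il2ra among the 13 and Thy1 among the 12 were of similar level in both populations. Both lists were chosen with earlier results of these data known, so they describe the labels and do not test them. Cd44, an adhesion receptor that DN3 cells have lost, stood at 3.85, 5.67 and 5.79 CPM in DN3.

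**Figure D2:**
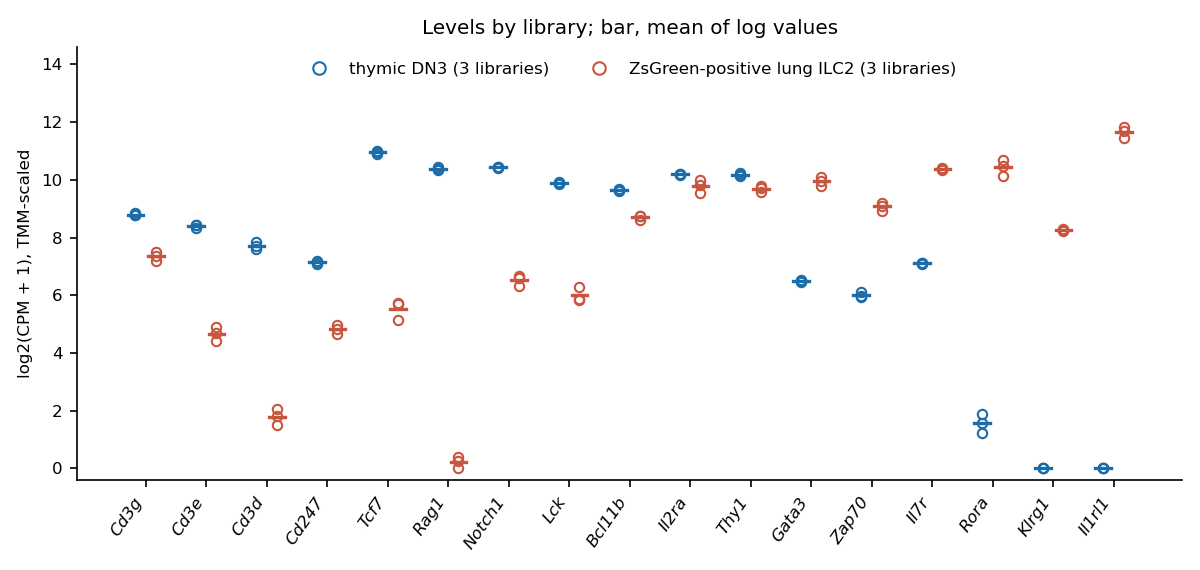
Points give log2(CPM + 1) of each gene in each of the 6 libraries, and bars the mean of the log values per population (3 libraries each). Cd3g, Cd3e, Cd3d, Cd247 and Tcf7 are higher in DN3, Klrg1 is at 0 there, and Il2ra and Thy1 lie close together.

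Markers of other cells moved with the populations. The 21 lung structural markers (epithelium, endothelium and stroma) summed to 202 to 237 CPM in DN3 and 1394 to 3442 CPM in ILC2 libraries. Of 19 tested, 16 were lower in DN3 and 3 higher (Pdgfrb, Epcam and Pecam1), beside 39.9% and 36% of all genes. In DN3, 8 of the 21 were at 0 counts, beside 384 of the 14486 genes tested that were at 0 counts there and called lower. Surfactant gene Sftpc measured 451, 549.6 and 809.6 CPM and club cell gene Scgb1a1 155, 305 and 1054 CPM in the ILC2 libraries, highest in library 3 in both cases. Macrophage and dendritic cell markers summed to 26.1 to 27.6 CPM in DN3 and 203 to 441 CPM in ILC2. The 10 thymic epithelium markers summed to 95.7 to 97.5 CPM in DN3 and 53.1 to 70.1 CPM in ILC2. Of 5 tested, 4 were higher in DN3 and 1 lower, beside 36% and 39.9% of all genes. Foxn1 and Krt5 among the 10 were at 0 counts in both populations. Markers of later thymocytes summed to 37.9 to 38.9 CPM in DN3 and 355 to 412 CPM in ILC2. Of 9 tested, 3 were higher and 5 lower in DN3, beside 36% and 39.9% of all genes. Zbtb7b was among the lower, and Trac, the TCR alpha constant gene, was low in both, so the sum is no measure of such cells. Every difference is to be read beside these levels, and the part of other cells in it was not tested.

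**Figure D3:**
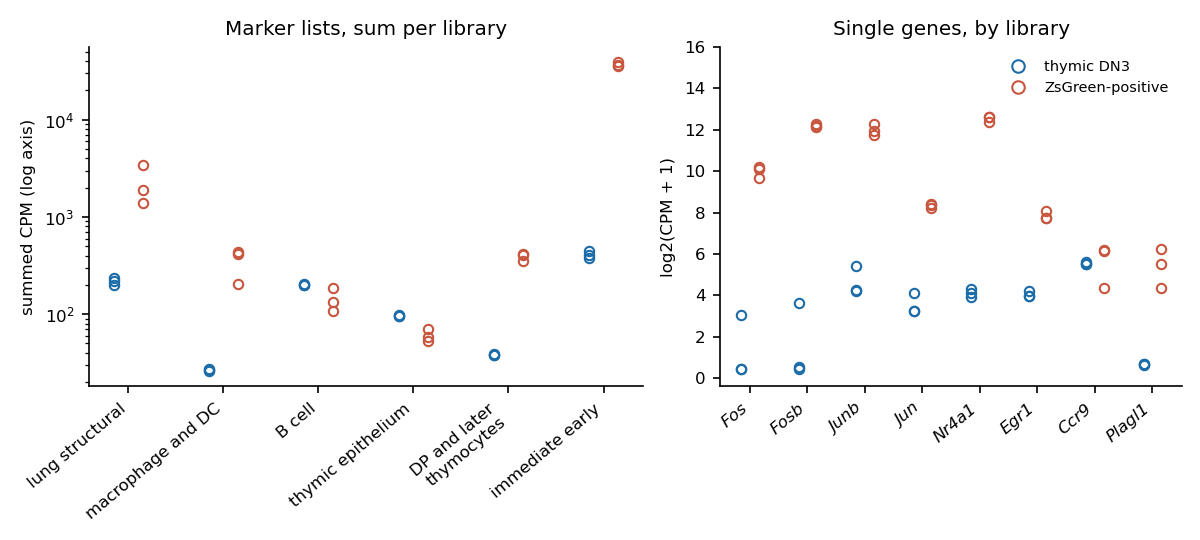
On the left, each point is the summed CPM of a marker list in 1 library on a log axis; on the right, log2(CPM + 1) of single genes in 1 library. Lung structural markers lie between 1394 and 3442 CPM in the 3 ILC2 libraries and between 202 and 237 CPM in the 3 DN3 libraries.

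The CD3 chains were shared but at unequal levels. Cd3g (ENSMUSG00000002033) measured 441, 457 and 433 CPM in DN3 and 181, 146 and 164 CPM in ZsGreen-positive ILC2, or 444 ± 12.3 and 164 ± 17.6 CPM (SD, n = 3 each). DN3 was higher by 1.44 log2 units (SE 0.09; edgeR BH-adjusted p = 8.41e-10), with no overlap, as in 78.6% of all genes. Cd3e (ENSMUSG00000032093), the epsilon chain that pairs with both gamma and delta, had 323, 346 and 347 CPM in DN3 against 28.8, 20.1 and 24.9 CPM in ILC2. The zeta chain gene Cd247 (ENSMUSG00000005763) had 144, 141 and 135 CPM in DN3 against 30.7, 24.5 and 27.2 CPM in ILC2. The delta chain gene Cd3d (ENSMUSG00000032094) stood furthest apart, at 191, 229 and 206 CPM in DN3 against 1.87, 3.19 and 2.50 CPM in ILC2. Their log2 differences had 95% intervals of 1.25 to 1.62 for Cd3g, 2.14 to 2.56 for Cd247, 3.54 to 4.00 for Cd3e and 6.01 to 6.78 for Cd3d, which do not overlap each other, and the edgeR BH-adjusted p of each was 8.41e-10 or lower.

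Per kilobase of merged exons (GENCODE M21, not necessarily the annotation the authors counted on), the order of the chains differed between the populations. In DN3, Cd3g stood at 136 ± 3.75, Cd3d at 115 ± 10.4, Cd3e at 83.0 ± 3.36 and Cd247 at 26.3 ± 0.822 CPM per kilobase (SD, n = 3). In ZsGreen-positive ILC2, Cd3g stood at 50.04 ± 5.38, Cd3e at 6.03 ± 1.07, Cd247 at 5.16 ± 0.582 and Cd3d at 1.39 ± 0.363 CPM per kilobase. Cd3g was the highest of the 4 in both, and Cd3d was second in DN3 and last in ILC2. The spreads of Cd3e and Cd247 in ILC2 overlapped. The related adaptor genes ran the other way: Hcst, which encodes DAP10, had 4.23 CPM in DN3 and 57.9 CPM in ILC2 (log2 difference −3.78, edgeR BH-adjusted p = 1.61e-11), and Tyrobp, which encodes DAP12, 0.421 and 3.43 CPM (−2.98, edgeR BH-adjusted p = 3.64e-05; −3.64 without DN3 library 3).

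Cd3g, Cd3d and Cd3e lie side by side on mouse chromosome 9, and their start regions are shown because the neighbours differed so unequally between the populations. The windows run from 250 bases before to 50 after the start, 5′ to 3′ on the gene's strand (RefSeq, GRCm38.p6; the counts are on GRCm39). Capitals mark E-boxes (CAGNTG, the motif of E proteins) and GATA hexamers (AGATAA or TGATAA), on either strand. The starts of Ptcra, at 0 counts in ILC2, and Il13, at 0 counts in DN3, are given beside them.
Cd3g (chr9:44980382-44980681, minus strand): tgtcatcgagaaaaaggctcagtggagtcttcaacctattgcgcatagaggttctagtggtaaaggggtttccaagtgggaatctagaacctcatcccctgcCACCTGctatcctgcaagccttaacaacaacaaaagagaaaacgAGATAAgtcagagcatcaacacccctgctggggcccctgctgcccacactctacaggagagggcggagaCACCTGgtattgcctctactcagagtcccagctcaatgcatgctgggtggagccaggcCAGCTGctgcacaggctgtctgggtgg
Cd3d (chr9:44981536-44981835, plus strand): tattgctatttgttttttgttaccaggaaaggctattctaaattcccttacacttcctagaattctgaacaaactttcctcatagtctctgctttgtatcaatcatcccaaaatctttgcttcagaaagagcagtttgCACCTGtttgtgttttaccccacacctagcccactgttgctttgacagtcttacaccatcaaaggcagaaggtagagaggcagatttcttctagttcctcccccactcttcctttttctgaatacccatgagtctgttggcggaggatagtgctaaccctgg
Cd3e (chr9:45009562-45009861, minus strand): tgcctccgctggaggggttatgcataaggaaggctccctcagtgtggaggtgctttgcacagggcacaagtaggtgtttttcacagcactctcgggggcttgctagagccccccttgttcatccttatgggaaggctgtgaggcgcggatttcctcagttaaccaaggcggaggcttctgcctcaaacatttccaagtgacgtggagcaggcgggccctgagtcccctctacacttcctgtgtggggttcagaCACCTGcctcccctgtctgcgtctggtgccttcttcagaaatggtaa
Ptcra (chr17:46763663-46763962, minus strand): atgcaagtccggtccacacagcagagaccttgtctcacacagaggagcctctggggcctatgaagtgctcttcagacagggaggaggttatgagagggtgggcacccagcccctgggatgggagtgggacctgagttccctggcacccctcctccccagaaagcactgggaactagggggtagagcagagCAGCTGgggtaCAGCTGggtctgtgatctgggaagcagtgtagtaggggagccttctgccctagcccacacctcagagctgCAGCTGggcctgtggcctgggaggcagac
Il13 (chr11:53634653-53634952, minus strand): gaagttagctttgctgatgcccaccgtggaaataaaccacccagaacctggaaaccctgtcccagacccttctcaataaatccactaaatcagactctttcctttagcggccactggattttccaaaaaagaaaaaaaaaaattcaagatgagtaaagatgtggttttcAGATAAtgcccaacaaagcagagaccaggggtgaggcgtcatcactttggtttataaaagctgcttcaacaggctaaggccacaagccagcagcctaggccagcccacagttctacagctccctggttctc
The windows of Cd3g and Ptcra held 3 E-boxes each, those of Cd3d and Cd3e 1 each and that of Il13 0. A GATA hexamer stood once in the Cd3g window and once in the Il13 window. Over 32851 RefSeq start windows of 300 bases, 51.4% held an E-box and 18.6% a GATA hexamer, so both are common. Cd3g and Cd3d are read in opposite directions from starts 1355 bases apart, and the starts of Cd3d and Cd3e lie 27825 bases apart. The matches describe letters in these windows and no binding was measured.

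Downstream of CD3, the proximal signalling genes were called in both directions, as genes were at large. Of 35 kinases, adaptors and phosphatases, 14 were higher and 19 lower in DN3, beside 36% and 39.9% of all genes. A similar level was found for 8, beside 26.7% of all genes. Lck, the kinase that starts TCR signalling, measured 928, 960.3 and 944 CPM in DN3 and 57.2, 55.98 and 76.7 CPM in ILC2, a difference of 3.88 log2 units (SE 0.11; edgeR BH-adjusted p = 2.65e-13). Its partner further down, Zap70, ran the other way with 62.1, 67.8 and 60.8 CPM in DN3 and 487, 543 and 592 CPM in ILC2 (−3.09 log2 units, SE 0.09; edgeR BH-adjusted p = 3.18e-13). Syk, the other kinase of that family and one used by the pre-TCR, was high where Zap70 was low, at 91.4, 90.9 and 91.8 CPM against 7.48, 16.3 and 12.5 CPM. Groups did not overlap for any of these kinases, beside 78.6% of all genes without overlap.

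Themis, an adaptor of thymocyte selection, was higher in DN3 (187 against 15.5 CPM), as was the surface regulator Cd6 (32.5 against 6.71 CPM). Malt1, a paracaspase on the way to NF-kB, was lower in DN3 (23.5 against 313 CPM), and so was the phosphatase gene Ubash3b (3.26 against 135 CPM). The 8 genes of similar level were Vav1, Plcg1, Ubash3a, Grap2, Fyb1, Prkcq, Csk and Ptprc. Vav1, an exchange factor, measured 209 ± 5.98 and 198 ± 8.86 CPM (SD, n = 3 each), with a 95% interval of −0.09 to 0.24 log2 units, and the phospholipase gene Plcg1 222 ± 5.54 and 191 ± 7.51 CPM, with an interval of 0.06 to 0.38. The list's median of −0.37 log2 units became 0.01 with library totals alone, so no direction is given for it, while the directions of Lck, Syk and Zap70 were the same under each scaling.

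**Figure D4:**
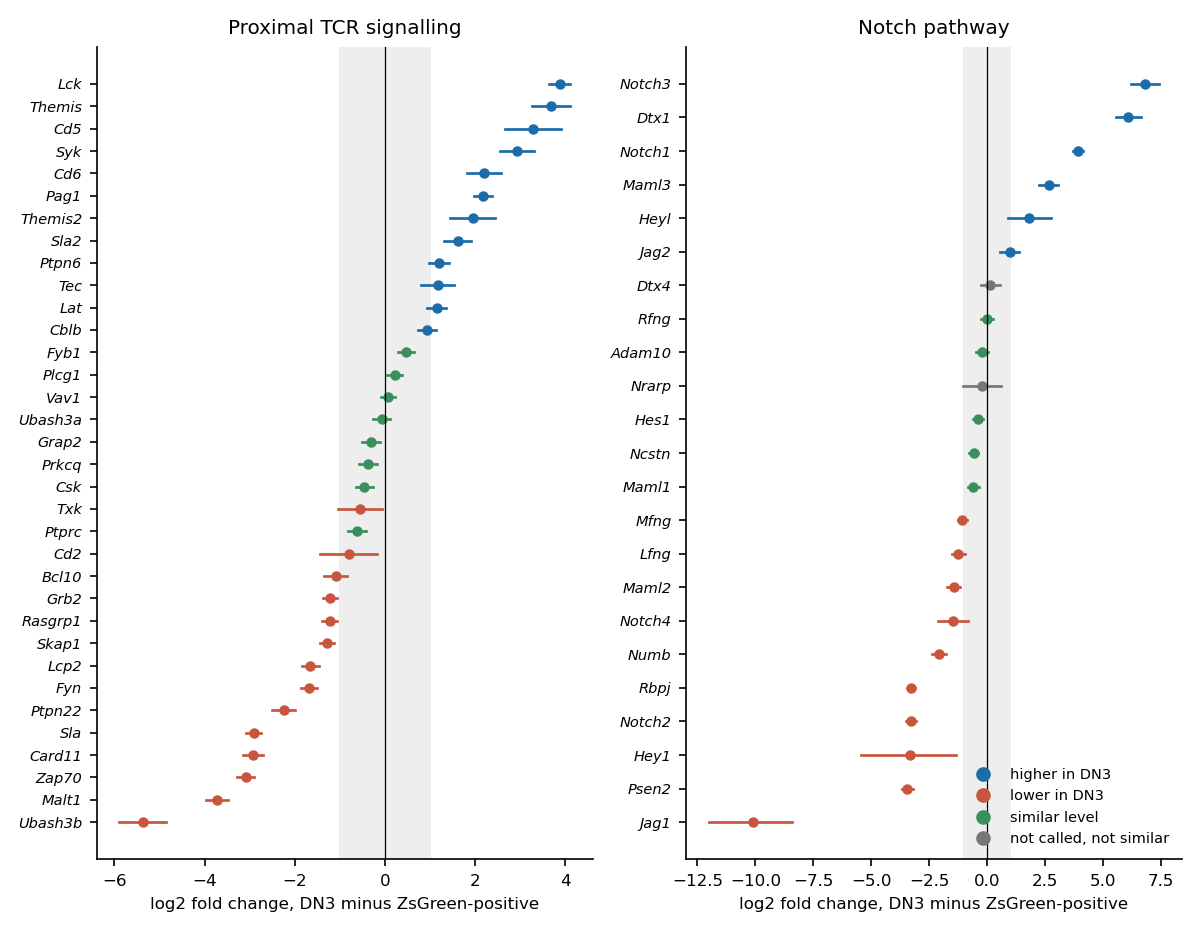
Log2 fold change (DN3 minus ZsGreen-positive ILC2, n = 3 each) with its 95% interval for tested proximal TCR genes on the left and Notch pathway genes on the right, 2 members left out; green marks genes of similar level whether or not called, and the grey band spans 2-fold either way. Lck (3.88) and Zap70 (−3.09) lie on opposite sides of 0, as do Notch3 (6.81) and Jag1 (−10.10).

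Genes that assemble the antigen receptor were high in DN3 and almost unread in ILC2. Rag1, the recombinase subunit that cuts DNA, had 1282, 1388 and 1328 CPM in DN3 and 3 counts in the ILC2 libraries together, a ratio of 12039 (95% counting interval 4119 to 58379.9). Dntt, which adds untemplated bases at the joints, had 1099.6, 1179 and 1135 CPM in DN3 and 0 counts in ILC2, or at least 10244-fold higher. Rag2 had 77.7, 80.01 and 70.6 CPM in DN3 (at least 685-fold higher), and Ptcra, the pre-TCR alpha chain, 139.9, 147 and 153 CPM (at least 1320.4-fold higher), both with 0 counts in ILC2. The repair genes that complete the joint were read in both. Prkdc, the DNA-dependent kinase, measured 74.9 and 74.95 CPM and Dclre1c, the hairpin-opening nuclease Artemis, 36.5 and 38.3 CPM, both of similar level, and the polymerase gene Polm was lower in DN3 (5.19 against 63.4 CPM). In all, 9 of 15 genes of the list were higher and 2 lower, beside 36% and 39.9% of all genes.

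TCR constant genes were read in both populations. Gamma and delta genes stood furthest apart, with Trgc2 at 455, 426 and 439 CPM in DN3 against 3.43, 5.78 and 5.20 CPM, Trdc at 189.8, 169 and 162 against 9.50, 10.4 and 12.9 CPM and Trgc1 at 398, 358 and 374 against 31.00, 40.4 and 29.9 CPM. Beta constant genes were closer, Trbc1 at 346, 339 and 308 CPM in DN3 and 165, 172 and 219.6 CPM in ILC2 and Trbc2 at 521, 504 and 475 against 256, 224 and 278 CPM. No DN3 library overlapped an ILC2 library for any of these 5 genes, beside 78.6% of all genes. All 5 were called higher in DN3, beside 36% of all genes. Trgc4 was of similar level (85.7 ± 0.939 and 103 ± 9.48 CPM, SD, n = 3 each) and Trac, which is rearranged after the DN3 stage, was low in both (2.07 and 3.08 CPM, not called). The gamma and beta constant genes have near-identical copies, between which the counting could split reads, so the single values are uncertain; a constant gene can also be transcribed without rearrangement, and no rearrangement was measured.

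Receptor, ligand and target genes of the Notch pathway each had their own levels. Among the receptors, Notch1 measured 1376, 1399.8 and 1354 CPM in DN3 and 96.9, 99.8 and 78.1 CPM in ILC2 (3.92 log2 units, SE 0.10; edgeR BH-adjusted p = 7.47e-14), and Notch3 673, 688 and 682 against 2.49, 5.38 and 8.35 CPM (6.81; 7.502 without ZsGreen-positive library 3). Notch2 ran the other way, at 47.6, 51.6 and 53.7 CPM in DN3 and 512, 544 and 443 CPM in ILC2 (−3.29). The ligand gene Jag1 had 4 counts in all DN3 libraries and 231, 219.9 and 158 CPM in ILC2 (−10.10, edgeR BH-adjusted p = 6.93e-13). Rbpj, the DNA-binding partner of all Notch receptors, was lower in DN3, at 87.1, 88.3 and 84.2 CPM against 849.5, 887 and 779 CPM. Of the targets, Dtx1 was higher in DN3 (119.7, 129 and 121 against 0.623, 1.79 and 2.38 CPM), whereas Hes1 was of similar level (74.2, 74.00 and 73.2 against 87.2, 93.4 and 108 CPM). The protease genes Adam10 and Ncstn, the fringe gene Rfng and the coactivator gene Maml1 were also of similar level, while Psen2 was lower in DN3 (12.4 against 136 CPM). Over 24 tested genes 6 were higher and 14 lower, beside 36% and 39.9% of all genes, with a median of −0.59 log2 units. With library totals alone 8 were higher and 11 lower, and the median was −0.21.

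Among 23 T lineage transcription factors, 8 were higher and 14 lower, beside 36% and 39.9% of all genes. In the same list 8 were of similar level, beside 26.7% of all genes. Myb, a factor of proliferating progenitors, measured 698, 672 and 673 CPM in DN3 and 3.12, 4.78 and 6.17 CPM in ILC2, and Sox4 and Sox13, factors of early thymocytes, 308 against 12.1 and 121 against 6.62 CPM. With Tcf7, these factors exceeded a difference of 4 log2 units with no overlap. Bcl11b, the commitment factor that T cells and ILC2 share, differed far less, with 775, 828 and 797 CPM in DN3 and 433, 388 and 429.6 CPM in ILC2 (0.94 log2 units, 95% interval 0.77 to 1.11; edgeR BH-adjusted p = 4.3e-08). Gata3, which both lineages need, was 11.1-fold lower in DN3, at 86.4, 91.5 and 88.6 CPM against 996, 1088 and 886 CPM. Ets1 was lower too (696 against 1606 CPM), as were Ikzf3 (27.1 against 283 CPM) and Zbtb7b, the CD4 lineage factor ThPOK, which had 2 counts in DN3 and 122, 102 and 121 CPM in ILC2. Ikzf1, Ikzf2, Tox, Ets2, Nfatc1, Nfatc3, Cbfb and Zfpm1 were of similar level. With library totals alone the list's median of −0.34 became 0.05 log2 units and its lower calls went from 14 to 8, so it has no direction. Nfatc1, Nfatc3, Cbfb and Zfpm1 changed sign with that scaling, whereas Myb, Sox4, Sox13, Tcf7, Bcl11b, Gata3, Ets1, Ikzf3 and Zbtb7b had the same direction under each scaling.

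E proteins drive thymocyte development and Id proteins block them by pairing with them. Tcf3, which encodes E2A, had 325, 321 and 323 CPM in DN3 and 103, 105 and 137 CPM in ILC2. Tcf12, which encodes HEB, had 458, 421 and 424 against 173, 167 and 134 CPM, and Tcf4 74.8, 66.5 and 69.6 against 16.5, 20.9 and 16.2 CPM. All 3 were higher in DN3, by 1.48, 1.47 and 2.00 log2 units. Id2, the inhibitor that all ILC depend on, differed most, at 11.3, 11.01 and 10.5 CPM in DN3 against 755, 649 and 554 CPM in ILC2 (−5.90 log2 units, SE 0.13; edgeR BH-adjusted p = 1.26e-14). Id3, which pre-TCR signals raise, was higher in DN3 (19.9, 22.4 and 18.8 against 2.80, 4.18 and 8.35 CPM), with library 3 the highest of ILC2: without it the difference of 1.85 log2 units became 2.58.

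Surface genes used to stage thymocytes held both shared and opposite members. Il2ra, the IL-2 receptor alpha chain CD25, measured 1175, 1159 and 1174 CPM in DN3 and 894, 1016 and 739.7 CPM in ILC2, and Thy1, the pan-T and ILC surface protein, 1192, 1148 and 1116 against 839, 763 and 882 CPM. Both are among the most abundant genes of similar level, with 95% intervals of 0.19 to 0.62 and 0.30 to 0.65 log2 units, and both were called slightly higher in DN3; with library totals alone their differences were 0.79 and 0.86, no longer inside the band. Il7r, the IL-7 receptor that sustains both lineages, was 9.72-fold lower in DN3, at 138, 133 and 138 CPM against 1305, 1314 and 1355 CPM. Cd44 was 196-fold lower in DN3, with 1053, 1027 and 965 CPM in ILC2. Cd24a, a marker of immature thymocytes, had 448, 409.8 and 423 CPM in DN3 and 74.9, 60.8 and 51.4 CPM in ILC2, Ly6d 204 and 1.40 CPM and the co-stimulatory receptor gene Cd28 63.9 and 5.57 CPM, all higher in DN3. In all 11 of 17 were higher and 6 lower, beside 36% and 39.9% of all genes.

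Apart from ribosomal and mitochondrial genes, which were not ranked, the 12 genes of similar level with the highest CPM were the elongation factors Eef1a1 (8310.1 CPM in DN3 and 12248 CPM in ILC2) and Eef2 (3437 and 5151 CPM), the chaperone gene Hspa8 (2339 and 2176 CPM), Pabpc1 (1718 and 1639.9 CPM), Rack1, Hnrnpa2b1, Eif4g2, Srrm2 and Ppia, besides Il2ra, Thy1 and the surface gene Ly6e. Of 36 proteasome genes 28 were of similar level, against 26.7% of all genes and 62.6% of those with at least 20 CPM in both. In DN3, 28 were called higher and 3 lower, beside 36% and 39.9% of all genes, with a list median of 0.46 log2 units. With library totals alone 15 were of similar level, 31 higher and 0 lower, with a median of 0.84. RNA polymerase II and Mediator genes were of similar level in 14 of 24, beside 62.6% of all genes with at least 20 CPM in both. Ribosomal protein genes were of similar level in 69 of 86. Among them 59 were called lower and 7 higher in DN3, beside 39.9% and 36% of all genes, with a median of −0.37 log2 units over the 86. With library totals alone 17 were lower and 23 higher, with a median of 0.01, so no direction is given for them. The similar-level class asks for 20 CPM in both populations, which highly expressed housekeeping genes meet more readily than others.

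Regulators and receptors of ILC2 were low in DN3. Of 19 ILC transcription factors 18 were lower and 0 higher, with 0 also in DESeq2 and limma voom, against 39.9% of all genes lower. Rora, a nuclear receptor ILC2 require, measured 2.67, 1.36 and 1.97 CPM in DN3 and 1409, 1645 and 1128 CPM in ILC2 (−9.47 log2 units, SE 0.27; edgeR BH-adjusted p = 2.88e-13). Bhlhe40 stood at 9.78, 9.87 and 8.74 against 2436, 2485 and 2347 CPM and Irf4, an activation factor, at 2.22, 1.70 and 1.48 against 406, 402 and 449 CPM. The aryl hydrocarbon receptor gene Ahr was the 1 not called, at 70.03 and 83.8 CPM, and Gfi1 was of similar level and called lower, though not with library totals alone (111 and 149 CPM). All 18 tested ILC2 receptor genes were lower, among them Il18r1, part of the IL-18 receptor, with 1 count in DN3 and 68.9, 82.1 and 78.8 CPM in ILC2, and Il18rap, its partner, with 3 counts and 314, 334 and 312 CPM.

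Type 2 cytokines and effectors were high in ILC2 and mostly at or near 0 in DN3. Of 28 genes 15 had 0 counts in DN3, and all 23 tested were lower there, beside 39.9% of all genes. Of the 14486 genes tested, 384 had 0 counts in DN3 and were called lower. Members at 0 counts in DN3 were tested only because of their level in ILC2, so the filter fixed their direction. The summed level was 158 to 161 CPM in DN3 and 12671 to 13672 CPM in ILC2. Il13, the mucus-inducing cytokine, measured 1043, 1265 and 1109.8 CPM in the ILC2 libraries (at least 8993-fold lower in DN3), Areg, an epidermal growth factor receptor ligand, 1820.2, 1837 and 1608 CPM (at least 13851-fold) and Csf2, which encodes GM-CSF, 912, 903 and 935 CPM (at least 7236-fold). Il5, the eosinophil cytokine, varied more between ILC2 libraries, at 433, 605 and 286 CPM, and had 3 counts in DN3. Arg1, the arginase of ILC2, had 8 counts in DN3 and 1106, 1014 and 951 CPM in ILC2. The summed lung structural markers of 1394 to 3442 CPM and macrophage markers of 203 to 441 CPM stood in the same ILC2 libraries, and some of these effector genes, Areg and Cxcl2 among them, are also made by other cells; their part was not tested.

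Receptors of the common gamma chain family and their signalling genes were lower in DN3 in 15 of 22 and higher in 4, beside 39.9% and 36% of all genes. Il2rb, the signalling beta chain of the IL-2 receptor, had 0.445, 0.113 and 0.616 CPM in DN3 and 507, 530.3 and 427 CPM in ILC2 (−10.27 log2 units; edgeR BH-adjusted p = 4.6e-15). Il4ra stood at 4.17 and 271 CPM. The feedback inhibitor Cish, a STAT5 target, was lower in DN3 at 19.3, 13.5 and 12.3 against 545, 610.2 and 565 CPM, and Socs2 likewise (12.5 against 132 CPM). The STAT5 genes themselves ran the other way, Stat5a at 231, 220.4 and 221 CPM in DN3 against 61.2, 59.6 and 55.9 CPM and Stat5b at 248 against 127 CPM. Socs1, Socs3 and Stat2 were of similar level.

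Of 23 tested chemokine receptor, integrin and egress genes 19 were lower and 2 higher in DN3, beside 39.9% and 36% of all genes. Cxcr4, which holds cells near CXCL12, was among the higher ones (225 and 149.7 CPM, also of similar level). Ccr8 had 0 counts in DN3 and 1134, 1094 and 912 CPM in ILC2. Ccr2 had 6 counts in DN3 and 1329, 1252 and 1026 CPM, and Cxcr6, a receptor of tissue-resident lymphocytes, 12 counts and 695, 681 and 585 CPM. The integrin genes Itga4 (540.4 ± 40.8 and 481 ± 67.4 CPM, SD, n = 3 each) and Itgb1 (212 and 285 CPM) were of similar level. Ccr9, a thymus homing receptor chosen after its values were seen, had 47.7, 44.9 and 44.5 CPM in DN3 and 69.9, 70.9 and 19.3 CPM in ILC2 with no call, ILC2 library 3 standing below the rest.

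Cell division genes were higher in DN3 almost throughout. All 34 DNA replication genes were called higher, by 0.83 to 3.84 log2 units, against 36% of all genes, and summed to 7156 to 7260 CPM in DN3 and 1511 to 1677 CPM in ILC2. Uhrf1, which guides maintenance methylation at the fork, measured 935, 984 and 911 CPM in DN3 and 65.6, 66.9 and 65.6 CPM in ILC2, and the origin-licensing genes Cdc6 112 and 9.27 CPM and Mcm7 515 and 71.8 CPM. Of 28 mitosis genes 27 were higher, with Ccnb1, the mitotic cyclin, at 151, 155 and 137 against 13.1, 16.7 and 16.2 CPM. Cenpa, the centromeric histone, was the exception, of similar level at 130.1 and 161 CPM and called lower (−0.31 log2 units; 0.07 and not called with library totals alone). Regulators of entry into the cycle split, with 9 higher and 9 lower of 19, beside 36% and 39.9% of all genes. The kinase gene Cdk6 stood at 1115, 1105 and 1063 CPM in DN3 and 105, 145 and 127 CPM in ILC2, while the cell cycle brakes Cdkn1a (40.2, 44.3 and 42.2 against 465, 483 and 549 CPM) and Rb1 (45.2 against 387 CPM) were lower in DN3. Myc (391 ± 4.04 and 351 ± 14.3 CPM) and Ccnd3 (274 ± 8.71 and 214 ± 14.1 CPM; SD, n = 3 each) were of similar level.

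Immediate early genes were among the most abundant genes of ILC2 and low in DN3. Of 27 genes 26 were lower in DN3, beside 39.9% of all genes, with a median of −7.10 log2 units beside −0.05 over all genes. The 1 higher gene was the phosphatase gene Dusp2 (50.4 against 20.01 CPM). The summed level of the 27 genes was 378 to 444 CPM in DN3 and 35623 to 38853 CPM in ILC2. Nr4a1, an orphan receptor induced by antigen receptor signals, measured 18.97, 14.3 and 16.01 CPM in DN3 and 5243, 6364 and 6284 CPM in ILC2, and Fosl2, an AP-1 subunit, 1.48, 2.04 and 0.985 against 4509, 4734 and 4577 CPM. Fosb, another AP-1 subunit, had 11.3, 0.454 and 0.369 CPM in DN3 and 4692, 4442 and 4924 CPM in ILC2, and Junb 41.3, 17.5 and 18.2 against 3883, 3414 and 4916 CPM. DN3 library 1 was the highest of DN3 for both: without it the difference of Fosb went from −10.33 to −13.40 log2 units. Inhibitors of NF-kB, themselves induced early, followed, within a list of 19 with 17 lower and 1 higher, beside 39.9% and 36% of all genes. Tnfaip3 had 70.1, 67.2 and 58.4 CPM in DN3 and 4836, 4590.2 and 4491 CPM in ILC2, and Nfkbia 23.3, 19.9 and 21.2 against 2202, 2102 and 2565 CPM. Such genes also respond to tissue digestion and sorting, which the labels do not describe for either tissue, and handling, batch and tissue cannot be told apart here.

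**Figure D5:**
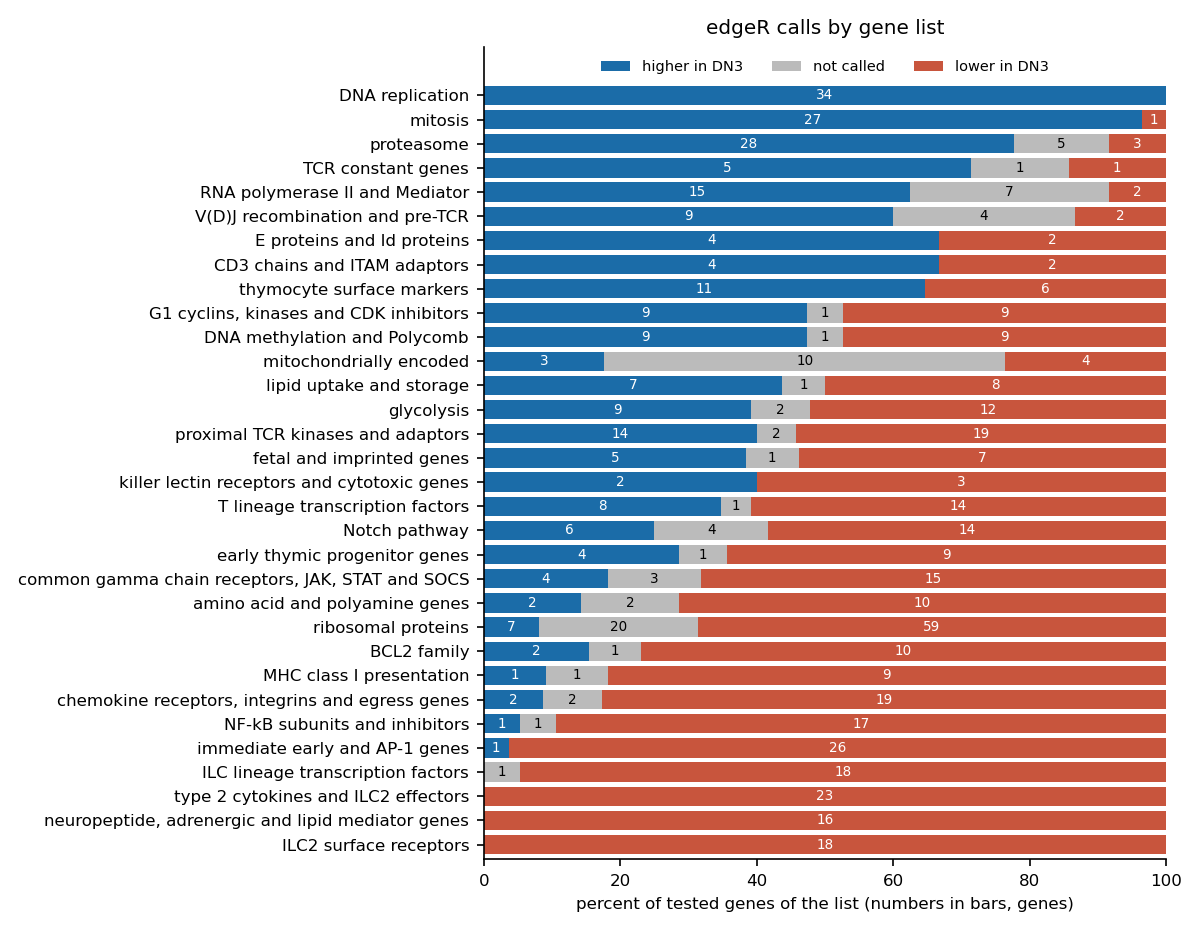
Each bar is a gene list, split by the percent of its tested genes called higher in DN3, lower in DN3 or not called by edgeR (BH-adjusted p under 0.05), with the number of genes printed inside. All 34 DNA replication genes are higher and all 23 type 2 cytokine and effector genes lower, while proximal TCR and Notch genes fall on both sides.

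Chromatin and fetal genes held DN3-high members. The imprinted RNA H19 measured 431, 510.2 and 485 CPM in DN3 and 0.467, 0.797 and 1.16 CPM in ILC2 (8.99 log2 units, SE 0.27; edgeR BH-adjusted p = 2.46e-15), the fetal RNA-binding protein gene Igf2bp3 53.5, 60.2 and 63.8 against 1.09, 1.99 and 1.86 CPM, and the chromatin protein gene Hmga1 561 and 44.00 CPM. The imprinted genes Plagl1 (0.592 against 45.9 CPM) and Peg13 (3.75 against 54.4 CPM) were lower in DN3. The fetal and imprinted list as a whole had 5 higher and 7 lower of 13, beside 36% and 39.9% of all genes. Among DNA methylation and Polycomb genes, 9 of 19 were higher and 9 lower, again beside 36% and 39.9% of all genes. The maintenance methyltransferase gene Dnmt1 stood at 812, 827 and 801 CPM in DN3 and 218, 223 and 219.8 CPM in ILC2, the de novo enzyme gene Dnmt3b at 103 and 17.2 CPM and the Polycomb methyltransferase gene Ezh2 at 294 and 94.8 CPM, all higher in DN3. The demethylase genes Tet2 (23.8 against 148 CPM) and Kdm6b (191 against 886 CPM) were lower in DN3, and Dnmt3a (189.8 and 230.4 CPM) was of similar level.

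Class I antigen presentation genes were lower in DN3 in 9 of 11 and higher in 1, beside 39.9% and 36% of all genes, and lower in 7 and higher in 2 with library totals alone. The heavy chain genes H2-K1 (201, 204 and 197 CPM in DN3 and 3044, 3161 and 3555 CPM in ILC2) and H2-D1 (155, 156 and 154 against 2814, 2768 and 2931 CPM) differed by −4.02 and −4.19 log2 units, and B2m, their light chain, by −2.29 (440.4 and 2147 CPM). The peptide transporter gene Tap2 was of similar level (141 and 136 CPM). H2 heavy chain genes have near-identical relatives, so their single values are uncertain, and structural cells of the lung also carry class I.

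Early progenitor and cytotoxic genes added members on both sides. Of 14 tested early progenitor genes 4 were higher and 9 lower in DN3, beside 36% and 39.9% of all genes. Only 5 of 16 killer receptor and cytotoxic genes were tested, with 2 higher and 3 lower. Kit, the stem cell factor receptor, was lower in DN3 (58.7, 50.96 and 55.4 against 713, 656 and 612 CPM), and Hlf, a factor known from blood stem cells, had 8 counts in DN3 and 872, 921 and 880.4 CPM in ILC2. Erg, an ETS factor of early thymocytes, was higher in DN3 (28.7, 27.7 and 29.9 against 1.87, 2.99 and 2.89 CPM). Gzma, a granzyme gene, had 193, 166 and 175 CPM in DN3 and 3 counts in ILC2, a ratio of 1591 (95% counting interval 544 to 7717).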

How the data were processed

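Sorted mouse cells were profiled by bulk RNA sequencing; the labels' protocols name PicoPure RNA isolation and a Watchmaker Genomics mRNA kit. The authors deposited raw counts per gene in a table of 57186 gene entries and 11 library columns, of which 6 were used. DESeq2 and the GRCm39 build stand in the submitters' processing notes. The sources used here do not give the aligner, counting program, annotation or use of strand. Ensembl identifiers and symbols were taken as deposited; 535 entries had no symbol.

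Counts were tested in R 4.3.3 with edgeR 4.0.16 (TMM scaling, filterByExpr with a minimum count of 10, robust quasi-likelihood F test, BH adjustment over 14486 genes, threshold 0.05), in a fit of the 6 libraries without a batch term, since batch and tissue coincide. Levels are TMM-scaled CPM. Log2 fold changes are DN3 minus ZsGreen-positive. A gene tested with 0 counts in 1 group passed the filter through the other group alone, so its direction was fixed. For a gene at 0 counts in a group, the bound uses 3 counts over that group, 0.127 CPM in DN3 and 0.111 CPM in ILC2. For 1 to 3 counts an exact 95% interval is given, and both cover counting error only. Replicates of each group differed beyond sampling noise in every pair (1.77 to 13.3 chi-square units per degree of freedom). The test was checked on simulated counts with known changes. Those changes were few and ran in both directions, unlike the data, so the check does not bear on the scaling.

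Gene lists, markers and members were chosen with earlier results of these data known, so list counts are descriptions. Named genes were the 6 given markers; per direction, the 12 most abundant separated genes differing by at least 4 log2 units; the 12 most abundant genes of similar level; in each list up to 4 called members of largest change per direction whose higher group reached 20 CPM, all of similar level and those with 3 or fewer counts in 1 group; and a set of lymphocyte genes. Unnamed gene models and ribosomal, mitochondrial, Xist and Y-linked entries were left out of this rule. A few members stay in the counts of their lists but are not reported by name here. The alternatives were 3 other scalings, DESeq2 1.42.0, limma 3.58.1 voom, other filters, bands and thresholds, all 11 libraries, a replicate block and leaving out each library.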

Additional observations from a re-analysis of the deposited data

How the results depend on the processing

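Counts of calls depended most on scaling and filter. Genes higher and lower in DN3 numbered 5217 and 5777, and 4871 to 5471 and 5716 to 5963 when 1 library was left out. Genes of similar level numbered 3865 (3628 to 3931) and separated genes 3737 (3997 to 4249). A group of 2 libraries separates more easily than 1 of 3, and the last range lies above the count from all 6. With library totals alone 3525 genes were of similar level, and 3003 of the 3865 stayed so. Cxcr4, Ppia and Hnrnpa2b1 were among those that left the class. With no low-count filter 5980 genes separated. A band of 1.5-fold gave 2051 genes of similar level and a level of 50 CPM 2245. DESeq2 called 4953 higher and 5572 lower, and limma voom 5299 and 5783. Library totals alone reversed the call of 7 of all genes tested, none of them named. Of 231 named genes called and not of similar level, 0 changed sign in any alternative; of 96 called and of similar level, 19 did so with library totals alone; of 34 of similar level and not called, 24 did so in at least 1 alternative; and Trac, not called, went from −0.69 to 0.08 without ZsGreen-positive library 3. The replicate numbers did not pair the libraries (correlation of deviations −0.015, −0.037 and 0.011), and with a replicate block 5189 genes were higher, 5715 lower, 3863 similar and 3763 separated. Of 263 named called genes with over 3 counts in both groups, 9 had a fold change that moved by over 1.5 times without 1 library: Notch3, Dtx1, Ly6d, Id3 and Nkg7 without ZsGreen-positive library 3, Fosb and Klf4 without DN3 library 1, Ccr2 without DN3 library 2 and Tyrobp without DN3 library 3. Leaving out 1 library ended the call of 4 of the 231: Scgb1a1 without any of the 6 (−15.58 to −13.64 log2 units), Nkg7 without any DN3 library or ZsGreen-positive library 2 (1.15 to 1.42, and 1.46 with the replicate block, also not called), Eln without ZsGreen-positive library 2 (−14.87) and Scart1 without library 3 (−0.49). It ended that of 26 of the 96 of similar level. Depth limits genes under 0.111 to 0.127 CPM over a group.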

Other observations

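Lipid genes were called in both directions, as genes were at large. Higher in DN3 were the desaturase gene Fads2 at 194, 207 and 204 CPM in DN3 and 3.43, 2.19 and 4.56 CPM in ILC2 and Scd2 at 752, 819 and 837 against 64.7, 61.6 and 43.5 CPM. Dgat1, which forms storage triglycerides, ran the other way with 19.1, 18.5 and 17.1 CPM in DN3 and 1259, 1694 and 1301 CPM in ILC2 (−6.28 log2 units, SE 0.12; edgeR BH-adjusted p = 1.16e-14), as did the other desaturase gene Scd1 (1.53 against 53.5 CPM). Of 16 lipid genes 7 were higher and 8 lower in DN3, beside 36% and 39.9% of all genes, so the list has no single direction. Cd36, a fatty acid transporter that macrophages and endothelium also carry, had 0 counts in DN3 and 31.8, 39.05 and 33.1 CPM in ILC2, beside lung structural markers of 1394 to 3442 CPM there, and the part of those cells was not tested.

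Glycolysis genes were mixed: of 23 entries 9 were higher, 12 lower and 7 of similar level, beside 36%, 39.9% and 26.7% of all genes. Their median of −0.25 became 0.13 log2 units with library totals alone. The lactate transporters exchanged places: Slc16a1 had 256, 275 and 266 CPM in DN3 and 37.1, 30.9 and 30.1 CPM in ILC2, and Slc16a3 1.78, 2.16 and 2.09 against 41.1, 40.2 and 47.01 CPM. Pyruvate kinase Pkm (836 and 732 CPM) and Pfkfb3 (70.9 and 72.05 CPM) were of similar level. Of 14 amino acid and polyamine genes 9 were of similar level, beside 62.6% of all genes with at least 20 CPM in both populations. Among the 9 was the transporter gene Slc38a1 (434 ± 20.2 and 431 ± 87.4 CPM, SD, n = 3 each), while Slc7a8 had 12 counts in DN3 and 556, 513 and 429 CPM in ILC2. In the BCL2 family, which sets the threshold of cell death, 10 of 13 were lower and 2 higher in DN3, beside 39.9% and 36% of all genes. Lower were the protective gene Bcl2 (74.7, 76.9 and 69.8 against 190.1, 230.5 and 160.5 CPM) and the death-promoting gene Pmaip1 (1.53 against 83.9 CPM), among others. The death-promoting genes Bid (55.7 against 8.64 CPM) and Bmf (47.2 against 7.69 CPM) were the 2 higher in DN3.

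All 16 tested genes of neuropeptide, adrenergic and lipid mediator signalling were lower in DN3, beside 39.9% of all genes. Nmur1, the neuromedin U receptor of ILC2, had 3 counts in DN3 and 117, 100.2 and 115 CPM in ILC2. Alox5, the first enzyme of leukotriene synthesis, had 0 counts in DN3 and 297, 272 and 303 CPM in ILC2, or at least 2295-fold lower in DN3. Within DN3, Xist and Ddx3y (picked once their values were known) differed: library 1 had 0.445 CPM of Xist and 106 CPM of Ddx3y, libraries 2 and 3 had 2799 and 2839 CPM of Xist with 0.681 and 0 CPM of Ddx3y, and every ILC2 library held both.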
